A study of Mus musculus with 8 samples.

Results

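Loss of 1 Ube3a allele was examined in the liver of C57BL/6 mice fed for 8 weeks with a high-fat diet (42% fat). The comparison uses 4 of the 8 libraries of the series, 2 from mice with a knockout and a wild-type allele of Ube3a (het) and 2 from wild-type mice (WT) normalised in the same table, and takes every gene of that table, 11773 in all. All 4 libraries share strain, tissue, diet and feeding time, and the labels give neither age nor sex. Separate animals for the replicates of a group are not stated either, so the p-values reflect the spread between the libraries at hand, which may be technical. RNA was measured by sequencing of total liver RNA, and each value is a normalised read count per gene, that is, reads divided by 1 factor per library. The title of the study names UBE3A as acting against liver fat through breakdown of MLL4, and the het mice stand for the loss of part of that activity.

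UBE3A is a HECT-type ubiquitin ligase, an enzyme that tags other proteins for destruction by the proteasome, and is best known from the brain, where neurons express mainly the maternal allele. MLL4, encoded by Kmt2d, places methyl groups on histone H3 at enhancers and takes part in adipogenic gene programmes. In fatty liver, hepatocytes store triglyceride in lipid droplets, whose coat proteins and lipase inhibitors are commonly induced together with the nuclear receptors PPAR-gamma and PPAR-alpha.

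The reads recovered from the values numbered 15530192 and 14581137 in the WT libraries and 17748088 and 13171145 in the het libraries. Albumin took 6.4 to 7.94% of a library's values and the 20 most abundant genes 23.3 to 24.1%. The median absolute log2 difference was 0.15 between the WT libraries and 0.14 between the het libraries, and the median absolute log2 fold change of het against WT was also 0.15. The first principal component, with 53.4% of the variance, set the WT libraries (−22.7 and −12.9) apart from the het libraries (18.3 and 17.3).

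Cidec, which enlarges lipid droplets, had the largest rise among called genes in het liver, followed by Cdkn1a, Ly6d and the droplet coat gene Plin4, and genes of secreted liver proteins, of cytochromes P450 and of the pericentral zone were among the falls. By limma with Benjamini-Hochberg adjusted p under 0.05, 105 genes rose (0.892% of those tested) and 64 fell (0.544%), 169 in all (1.44%). Of these, 38 rises and 18 falls were over 2-fold, and 7 and 2 over 4-fold. The median log2 fold change was 0.89 among the rises and −0.77 among the falls, and the smallest called sizes were 0.48 and −0.48. The groups did not overlap for any of the 169, so that non-overlap, where given below for a called gene, is no further support. In the whole table both het libraries lay above both WT libraries in 24.3% of cases and below them in 23.7%. Over all genes 5873 lay above WT and 5900 below, with a median log2 fold change of −0.00.

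Single libraries weighed heavily on these counts. The number of calls was 65 with WT replicate 1 left out, 173 with WT replicate 2, 61 with het replicate 1 and 105 with het replicate 2 left out. Of the 169 calls, 40, 84, 37 and 58 were kept in those fits, 27 genes (17 higher and 10 lower) were called in all 4 of them, and 63 in none. No called gene changed sign. A call named below without mention of these fits may have ended in some or all of them. With all 8 libraries of the series in a single fit limma called 0 genes, with 1157 at an unadjusted p under 0.05, against 1729 with the 4 libraries alone.

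**Figure D1:**
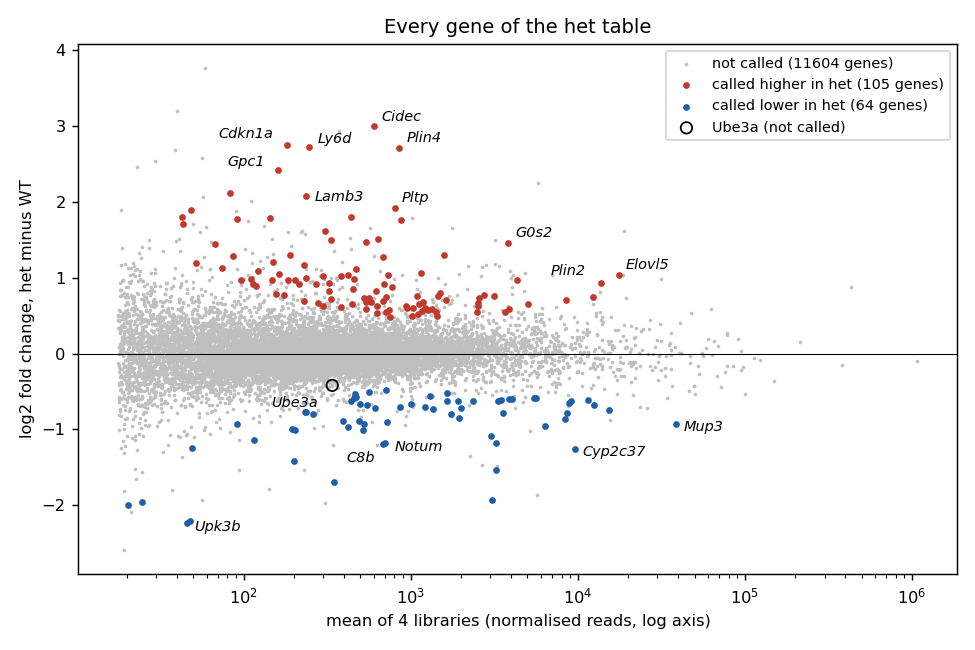
Log2 fold change of het over WT (vertical axis) against the mean of the 4 libraries in normalised reads (horizontal, log axis) for all 11773 genes, with called genes in colour. The 105 called rises (red) reach 3.0 at Cidec, the 64 called falls (blue) reach −2.24 at Upk3b, and the ringed Ube3a (−0.42) is not called.

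Ube3a itself was lower in het but did not pass over all genes. Ube3a (ENSMUSG00000025326, chromosome 7, 59228750 to 59311536, + strand, GRCm38) stood at 369 and 409 in the WT libraries and at 301 and 279.5 in the het libraries. Both het values lay below both WT values, with a log2 fold change of −0.42 (SE 0.11, limma adjusted p = 0.129). Reads from undeleted exons of the knockout allele may be counted, so the value does not measure the dose of functional RNA. The transcript C230091D08Rik, whose span overlaps Ube3a and contains Snhg14, had −0.65 (adjusted p = 0.0943). Where these genes overlap, their reads cannot be told apart without strand. Within 10 Mb of Ube3a, 41 genes were tested and 0 were called; 22 lay above and 19 below WT, with a median of 0.03. Among its neighbours Herc2, a HECT ligase that UBE3A binds, stood at 596 and 539 in WT and at 608 and 607 in het, and Snhg14, the antisense host transcript, at 21.5 and 30.8 in WT and at 34.5 and 23 in het.

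Kmt2d, the gene of MLL4, stood at 758 and 716 in WT and at 835 and 794 in het, which is 0.14 on the log2 scale (adjusted p = 0.519). RNA does not measure the protein. Of 23 measured subunits of MLL3/MLL4 and related complexes 0 were called, 16 lay below WT and the median was −0.10; the smallest p belonged to the histone demethylase gene Kdm6b (0.36, adjusted p = 0.16). The 24 HECT ligases (median 0.09), 29 E2 conjugating enzymes (0.01) and 38 proteasome subunits (0.07) had 0 calls. Among 16 genes of proteins described as substrates or partners of UBE3A 0 were called (median 0.05). The tumour suppressor gene Trp53 had the smallest p there, at 287 and 287 in WT and 205 and 186 in het (−0.55, adjusted p = 0.0783). Of 31 imprinted genes 1 rose and 1 fell. Ddc, the decarboxylase that makes dopamine and serotonin, rose (0.91, SE 0.14, adjusted p = 0.0311), and Dio3os, a noncoding gene beside the deiodinase gene Dio3, fell (−1.41, SE 0.19, adjusted p = 0.0165).

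Several lipid droplet genes rose, some of them by large factors. Of 22 measured genes of the droplet coat and its lipolysis, 6 rose, 0 fell and 20 lay above WT, with a median log2 fold change of 0.49. Cidec, which fuses and enlarges droplets (ENSMUSG00000030278, chromosome 6, 113424634 to 113435760, − strand), stood at 127 and 138 in WT and at 947 and 1196 in het. Both het libraries were thus far above both WT libraries, an 8.08-fold rise of the means (log2 fold change 3.0, SE 0.13, adjusted p = 6.84e-05). Plin4, a perilipin of the droplet coat, stood at 238 and 207 in WT and at 1757 and 1222 in het (2.72, SE 0.18, adjusted p = 0.0046).

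G0s2, which blocks the triglyceride lipase ATGL, stood at 1642 and 2482 in WT and at 5789 and 5346 in het (1.46, SE 0.20, adjusted p = 0.0403). Plin2, the main coat protein of hepatocyte droplets, went from 10039 and 8838 to 16859.7 and 19271 (0.94, SE 0.13, adjusted p = 0.016). Fitm1 and Fitm2, which partition triglyceride into droplets, rose by 1.03 and 0.73 on the log2 scale. In none of these genes did a het library reach down into the WT range. ATGL itself, Pnpla2, was at 1485 and 1413 in WT and 1571 and 1706 in het (0.18, adjusted p = 0.447). Lipa, the lysosomal acid lipase (0.52, adjusted p = 0.0683), Hsd17b13, a droplet protein of liver (0.52, adjusted p = 0.0748), and Hilpda, another lipase inhibitor (1.35, adjusted p = 0.117), did not pass. Cidec, Plin4 and Fitm1 were called whichever library was left out, and 4 to 6 of the list's members were called in each of those fits.

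**Figure D2:**
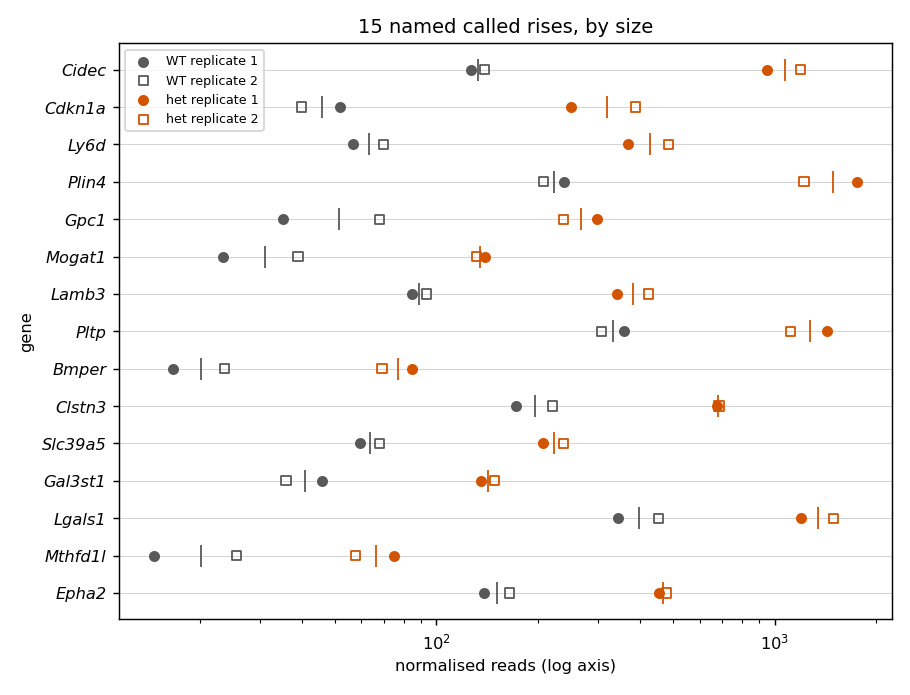
Normalised reads (log axis) of 15 called rises, by size, among genes named here that are not predicted gene models, with a symbol for each library and a short bar at each group's mean. WT symbols (grey) lie left of het symbols (orange) in each of the 15 genes, with Cidec at 127 and 138 against 947 and 1196.

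Some enzymes that build long and polyunsaturated fatty acids rose. Of 16 desaturases and elongases 3 rose and 14 lay above WT (median 0.49). Elovl5, an elongase of polyunsaturated fatty acids, stood at 12467 and 10439 in WT and at 26902 and 20443 in het (1.04, SE 0.16, adjusted p = 0.0295). Fads2, the delta-6 desaturase, rose by 0.74 (8599 and 9936 against 15255 and 15698), and Hsd17b12, which reduces the elongation intermediate, also by 0.74 (SE 0.10, adjusted p = 0.0148). All 3 genes had both het libraries above both WT libraries. Without het replicate 1, 0 members of this list were called, and without WT replicate 1 only 1 was.

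De novo lipogenesis had 0 calls among 21 genes, with 16 above WT and a median of 0.37; leaving out het replicate 1 gave −0.05 and leaving out het replicate 2 gave 0.78, with 7 calls. Scd1, the stearoyl-CoA desaturase, was at 261789 and 333642 in WT and at 731848 and 404286 in het (0.88, adjusted p = 0.279), so that het replicate 1 stood well above the other libraries. Acacb, the acetyl-CoA carboxylase of the mitochondrial surface, was at 2466 and 2465 in WT and at 6414 and 4283 in het (1.09, SE 0.19, adjusted p = 0.0678).

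Of 25 genes of triglyceride and phospholipid assembly 2 rose and 17 lay above WT (median 0.11). Mogat1, which acylates monoacylglycerol, went from 23.4 and 39.0 to 139 and 131 (2.12, SE 0.27, adjusted p = 0.0108). Agpat2, the acyltransferase that makes phosphatidic acid, rose by 0.59 (3023 and 3203 against 4564 and 4806). Beyond this list rose Agpat9, a glycerol-3-phosphate acyltransferase gene (0.68), Chpt1, which finishes phosphatidylcholine (0.67), and Pla2g6, a calcium-independent phospholipase (0.75). Without het replicate 1 no member of the assembly list was called. Of 21 genes of fatty acid uptake and activation 2 rose (median 0.26), namely Acsl5, an acyl-CoA synthetase (0.70, SE 0.13, adjusted p = 0.0442), and Fabp2, a fatty acid binding protein of intestine (0.54, SE 0.10, adjusted p = 0.0429). Fabp2 was not called when any single library was left out (largest adjusted p = 0.192), and Acsl5 was called only without het replicate 2. Fabp4, a binding protein of adipocytes and macrophages, was at 104 and 149.7 in WT and 237 and 243 in het (0.93, adjusted p = 0.0511).

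Of 25 measured PPAR-alpha targets 3 rose and 24 lay above WT, with a median of 0.48 that was 0.29 without het replicate 2, where 1 member was called. Besides Plin2 these were Pex11a, which divides peroxisomes (846 and 655 in WT, 1399.6 and 1733 in het; 1.06, SE 0.16, adjusted p = 0.0372), and Vnn1, a pantetheinase (2182 and 1853 in WT, 3112 and 3819 in het; 0.78, SE 0.13, adjusted p = 0.0382). The groups did not overlap for either gene, which holds for every call. When a library was left out, the log2 fold change ran from 0.88 to 1.25 for Pex11a and from 0.63 to 0.93 for Vnn1. Slc22a5, the carnitine transporter of the cell surface, rose as well (0.61). Among 33 lipid-sensing nuclear receptors and their partners 0 rose and 1 fell, with 16 above WT, 17 below and a median of −0.03.

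Of 32 genes of fatty acid oxidation and ketogenesis 0 passed, although 30 lay above WT (median 0.24). Crat, a carnitine acetyltransferase, had 1.15 (adjusted p = 0.0884), at 1514 and 1221 in WT and 2505 and 3634 in het. Some large differences, widest in het replicate 2, were not called. Pdk4, a kinase that shuts off pyruvate oxidation, was at 89.7 and 66.6 in WT and at 374 and 965 in het (2.94, SE 0.59, adjusted p = 0.217). Fgf21, a fasting hormone of liver, was at 24.4 and 13.3 in WT and at 41.4 and 149.5 in het (2.07, SE 0.72, adjusted p = 0.324). In both genes the het libraries stood above the WT libraries but far from each other.

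Sterol synthesis had 1 call among 25 genes, with 22 above WT and a median of 0.35; leaving out het replicate 1 gave 0.16 and leaving out het replicate 2 gave 0.61. Hmgcs1, which makes HMG-CoA for cholesterol synthesis (ENSMUSG00000093930, chromosome 13, 119690379 to 119708260, + strand), stood at 1119 and 1063 in WT and at 2073 and 1732 in het. The groups did not overlap (0.80, SE 0.11, adjusted p = 0.0165). The call ended without WT replicate 1 or het replicate 1 (largest adjusted p = 0.0967). Sqle, the squalene epoxidase (1.01, adjusted p = 0.0734), did not pass. The promoter of Hmgcs1 is printed because it holds the core of a sterol response element, TCACNCCAC, the sequence read by the SREBP factors. Its 250 bases before the start site run 5′ to 3′ at chr13:119690101-119690350 on the + strand (RefSeq, GRCm38.p6), with the match in capitals, beginning 137 bases before the start:
Hmgcs1 promoter: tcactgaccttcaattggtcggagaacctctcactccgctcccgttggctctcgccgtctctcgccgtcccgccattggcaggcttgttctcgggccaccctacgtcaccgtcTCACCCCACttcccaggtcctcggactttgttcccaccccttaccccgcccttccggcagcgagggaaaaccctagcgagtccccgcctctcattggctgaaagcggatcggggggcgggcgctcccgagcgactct

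RefSeq promoters, read over the 250 bases before the start, matched 9009 of the 11773 genes. On either strand TCACNCCAC stood in 122 of them (1.35%), in 3 of 76 promoters of genes that rose (Hmgcs1, Ugt1a5 and Atp9a) and in 1 of 47 of genes that fell (BC024386). Other short words were counted the same way: CACGTG, an E-box, stood in 7 of 76 and 4 of 47 against 10.2% of all promoters, TATAAA in 7 and 6 against 8.27%, and CCAAT in 33 and 20 against 40.5%. A match describes the letters of a window and shows no binding.

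Pltp, which moves phospholipid between lipoproteins, was the single call among 40 genes of lipoproteins, their receptors and remodelling (median 0.03). It stood at 359.8 and 308 in WT and at 1432 and 1115 in het, a 3.82-fold rise (1.92, SE 0.14, adjusted p = 0.00203), and was called whichever library was left out. Angptl4, which inhibits lipoprotein lipase, had 0.56 (adjusted p = 0.0633). Apoa4, an apolipoprotein gene that responds to liver fat, was at 7915 and 9749.9 in WT and at 18315 and 39801 in het (1.62, SE 0.46, adjusted p = 0.294). Among 35 genes of glucose and glycogen metabolism 0 were called (median 0.08). Pck1 and G6pc, control points of gluconeogenesis, stood 0.98 (adjusted p = 0.106) and 0.87 (adjusted p = 0.186) above WT on the log2 scale. No call fell among 35 genes of insulin and growth factor signalling (median −0.03) or 27 hepatokines (median 0.02).

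A few growth arrest and immediate early genes rose. Of 32 immediate early and heat shock genes 2 rose and 0 fell, 19 lay above WT and 13 below, and the median was 0.06. Of 35 p53 targets and DNA damage genes 2 rose and 25 lay above WT (median 0.20). Cdkn1a, which encodes the cell cycle inhibitor p21, stood at 51.7 and 39.98 in WT and at 251 and 388 in het, and rose 6.97-fold (2.75, SE 0.24, adjusted p = 0.00393). Btg2, an antiproliferative gene, went from 118 and 101 to 299 and 245 (1.31, SE 0.16, adjusted p = 0.0101). Jun, a subunit of AP-1, rose as well (75.1 and 107 in WT, 230.1 and 188 in het; 1.21, SE 0.20, adjusted p = 0.0372). In each of these genes, as in every called rise, the lower het library stood above the higher WT library.

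Tk1, the thymidine kinase of S phase, fell from 889 and 979 to 514 and 488 (−0.90, SE 0.10, adjusted p = 0.00559). Cdkn1a and Tk1 were the 2 calls among 37 cell cycle and replication genes (median 0.08), and both were called whichever library was left out. Mki67, the proliferation marker, was at 35.1 and 44.1 in WT and 77.6 and 95.5 in het (1.11, adjusted p = 0.0683), so that members of this list stood on both sides. The 35 NRF2 targets and metallothioneins had 0 calls with 29 above WT (median 0.19), and 6 calls without WT replicate 2. The unfolded protein response (37 genes, median 0.04) and autophagy (50 genes, median 0.07) had 0 calls.

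Genes of the basement membrane, cell surface and cytoskeleton were among the rises. Of 55 collagens, laminins and matrix genes 4 rose and 0 fell (median 0.13; −0.00 without WT replicate 1 and −0.01 without het replicate 2). Lamb3, a chain of epithelial laminin, stood at 84.8 and 93.3 in WT and at 341 and 423 in het (2.08, SE 0.15, adjusted p = 0.00103). Col5a3 (1.02), Col15a1 (0.97) and Col4a1 (0.83), collagen chains, were the others, and Lamb3 was called whichever library was left out. The fibrillar collagen gene Col1a2 had 0.45 (adjusted p = 0.148).

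Heparan sulfate genes went both ways, with 1 rise and 1 fall among 30 (median 0.02). Gpc1, a glypican, stood at 35.1 and 67.7 in WT and 298 and 238 in het (2.43, SE 0.32, adjusted p = 0.0393). Its log2 fold change ran from 1.96 to 2.89 when a library was left out. Sulf1, which removes sulfate from heparan sulfate, went from 27.3 and 39.0 to 6.90 and 8.05 (−1.99, SE 0.39, adjusted p = 0.0491), and its call ended when any single library was left out. Gpc3, a glypican of fetal liver, had −1.65 (adjusted p = 0.0633).

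Lgals1, galectin-1, rose from 343 and 453 to 1196 and 1492 (1.76, SE 0.17, adjusted p = 0.0108). Epha2, an ephrin receptor, stood at 139 and 164 in WT and 454 and 479 in het (1.62, SE 0.13, adjusted p = 0.00146). Clstn3, a calsyntenin, went from 172 and 220.4 to 676 and 686 (1.80, SE 0.13, adjusted p = 0.00103). All 3 were called whichever library was left out, with no overlap of the groups. The annexins Anxa2 (1.02) and Anxa5 (0.71), the neighbouring tubulins Tubb2a (1.28) and Tubb2b (0.97), which may share reads, and the transglutaminase gene Tgm2 (0.63) rose as well. Bmper, which binds BMP proteins, rose from 16.6 and 23.6 to 84.5 and 69.0 (1.90, SE 0.28, adjusted p = 0.0232). Its low values rest on few reads.

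Cytochromes P450 of families 1 to 3 were lower, with 5 falls, 0 rises and 33 of 46 below WT (median −0.24). They metabolise drugs, steroids and fatty acids. Cyp2c37 stood at 14698 and 12529 in WT and at 5055 and 6322 in het, and fell by 1.26 on the log2 scale (SE 0.14, adjusted p = 0.00777). Cyp2c44 went from 4969 and 3997 to 1975 and 1968 (−1.18, SE 0.12, adjusted p = 0.0047), and both were called whichever library was left out. Cyp2c50 (−0.86), Cyp2d10 (−0.65) and Cyp2d11 (−0.53) were the other falls. These genes have close neighbouring paralogs between which reads may be split; Cyp2c54, another, had −1.47 (adjusted p = 0.0753), at 3909 and 3880 in WT and 1109 and 1769 in het. Outside the list fell Cyp26a1, which clears retinoic acid (−0.89), and Cyp4f14, an omega-hydroxylase (−0.61).

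Conjugating and other detoxifying enzymes went both ways, with 5 rises and 2 falls among 75 (median 0.08). Ugt1a5 (1.301) and Ugt1a9 (1.03), glucuronosyltransferases of a locus with shared exons whose reads cannot be assigned to 1 gene with certainty, rose. Cyp17a1, the steroid 17-hydroxylase, stood at 2254 and 2458 in WT and 4076 and 3875 in het (0.76, SE 0.10, adjusted p = 0.0155). Ces2e, a carboxylesterase (0.66), and Aox1, an aldehyde oxidase (0.60), rose too, while Ces1b, another carboxylesterase, fell (−0.62). Rdh16, a retinol dehydrogenase, rose by 0.97 on the log2 scale and Akr1c14, a hydroxysteroid dehydrogenase, fell by 0.60. Not all of the genes named here belong to the list, whose members ran from −1.93 to 1.3 on the log2 scale. The number of calls in this list was 2 without WT replicate 1 and 8 without WT replicate 2.

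Pericentral genes, those of hepatocytes near the central vein where Wnt signals are strong, had 5 falls and 0 rises among 37. Their median was −0.13; leaving out WT replicate 1 gave −0.37 and leaving out het replicate 2 gave −0.36. Notum, a secreted enzyme that inactivates Wnt proteins and is itself a Wnt target (ENSMUSG00000042988, chromosome 11, 120653788 to 120661175, − strand), stood at 1057 and 905 in WT and at 401 and 461 in het. Both het libraries held fewer normalised reads than either WT library (−1.18, SE 0.12, adjusted p = 0.00386), and the call held whichever library was left out. Rnf43, a ligase that removes Wnt receptors, fell from 609 and 604 to 356 and 408 (−0.67, SE 0.11, adjusted p = 0.0279), and its homologue Znrf3 had −0.56 (adjusted p = 0.122).

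The other falls of the list were Cyp2c37 and Cyp2c50, given above, and Ahr, the aryl hydrocarbon receptor (−0.58, SE 0.10, adjusted p = 0.0403), whose call ended when any single library was left out. Other Wnt-dependent genes gave no such difference: Axin2 was at 75.1 and 109 in WT and 69.0 and 102 in het (−0.10, adjusted p = 0.891), and Glul, glutamine synthetase, at 13120 and 12800 in WT and 10105 and 13882 in het (−0.13, adjusted p = 0.749). Lgr5, a receptor of the Wnt enhancer R-spondin, had −1.06 (adjusted p = 0.317). Of 28 periportal genes 0 were called (median 0.11), although without WT replicate 2 it was 3.

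Several genes of secreted liver proteins fell. All 15 measured major urinary proteins, pheromone carriers made in rodent liver, lay below WT with a median of −0.68, and 7 of them fell. Mup3 stood at 51624 and 49942 in WT and at 26483 and 26740.4 in het (−0.93, SE 0.12, adjusted p = 0.0138), with both het libraries well under both WT libraries. Mup1 (−0.95), Mup2 (−0.79), Mup21 (−0.77), Mup13 (−0.74), Mup9 (−0.68) and Mup6 (−0.62) were the others. They lie in a cluster on chromosome 4 (59964294 to 62150863) and are near-identical, so reads may be shared and the members do not count as independent. The number of called members was 0 without WT replicate 1 or het replicate 1, 2 without WT replicate 2 and 6 without het replicate 2.

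Mup1, Mup3 and Mup21 are also among the 4 falls, with Nox4, an NADPH oxidase (−0.80), in 27 male-biased liver genes (median −0.34). Nox4 was not called when any single library was left out. Xist, the transcript of the inactive X chromosome, stood at 14441 and 14276 in WT and 14327 and 13359 in het. It was thus abundant in all 4 libraries (log2 fold change −0.05), and was the only gene measured in the list of sex chromosome genes. The steroid-dependent transporter gene Slco1a1 was at 610.4 and 365 in WT and at 80.2 and 178 in het (−1.97, SE 0.56, adjusted p = 0.313). The 34 female-biased genes had 1 rise and 1 fall, with 18 above WT, 16 below and a median of 0.02.

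Complement and coagulation genes had 2 falls and 1 rise among 53 (median −0.07, 35 below WT). C8b, a chain of the complement attack complex, stood at 972 and 915 in WT and at 388 and 439 in het (−1.19, SE 0.10, adjusted p = 0.00203) and was called whichever library was left out. F7, coagulation factor VII, stood at 2369 and 2324 in WT and at 1508 and 1523 in het (−0.63, SE 0.09, adjusted p = 0.0214). Ang, angiogenin, and Rnase4 (−1.08 and −0.61), ribonucleases that overlap on chromosome 14 and may share reads, fell as well. Gpld1, a phospholipase of plasma, fell by 0.78, and Serpinb1a, an inhibitor of neutrophil proteases, by 0.93 on the log2 scale. Acute phase genes had 0 calls among 36 (median 0.10), and Lcn2, lipocalin 2, had 1.53 (adjusted p = 0.174).

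The promoters of F7 and Cyp2d10 are printed because they alone, among those of called genes, hold a direct repeat of AGGNCA with 1 base between the copies, the arrangement read by pairs of nuclear receptors such as PPAR with RXR and HNF4. It stood in 35 of 9009 promoters (0.389%), in 0 of 76 of genes that rose and in 2 of 47 of genes that fell. The stricter repeat of AGGTCA stood in 5 of 9009 (0.0555%) and in none of the called genes. Capitals mark the match, 34 bases before the start and on the opposite strand in F7 (chr8:13025784-13026033, + strand) and 57 bases before it in Cyp2d10 (chr15:82407195-82407444, − strand), both 5′ to 3′ from RefSeq on GRCm38.p6:
F7 promoter: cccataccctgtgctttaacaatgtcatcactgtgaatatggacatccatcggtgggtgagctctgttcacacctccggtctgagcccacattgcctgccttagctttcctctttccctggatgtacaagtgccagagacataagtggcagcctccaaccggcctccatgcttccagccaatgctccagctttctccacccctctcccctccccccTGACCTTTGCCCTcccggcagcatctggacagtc
Cyp2d10 promoter: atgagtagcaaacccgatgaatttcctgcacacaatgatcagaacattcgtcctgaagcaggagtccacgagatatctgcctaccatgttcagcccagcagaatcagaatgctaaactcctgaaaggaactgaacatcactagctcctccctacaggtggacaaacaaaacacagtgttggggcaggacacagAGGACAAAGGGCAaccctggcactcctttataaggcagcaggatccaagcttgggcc

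**Figure D3:**
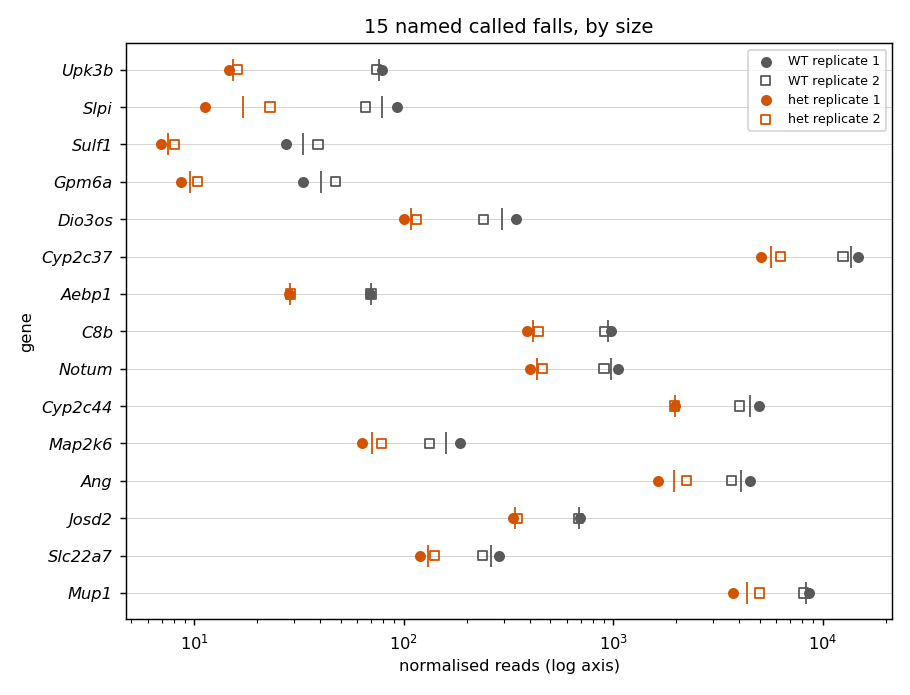
Normalised reads (log axis) of 15 called falls, by size, among genes named here that are not predicted gene models, with a symbol for each library and a short bar at each group's mean. Het symbols (orange) lie left of WT symbols (grey) in each of the 15 genes, with C8b at 388 and 439 against 972 and 915.

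Among cell type markers, those of mesothelium lay mostly below WT and those of endothelium mostly above, while other cell types had few or no calls. Mesothelium, the surface lining of the liver, had 3 falls among 14 markers, 12 of which lay below WT (median −0.83). Upk3b, a uroplakin, went from 79.0 and 73.8 to 14.7 and 16.1 (−2.24, SE 0.26, adjusted p = 0.00891), and Slpi (−2.21) and Gpm6a (−1.96) fell from WT levels under 100 normalised reads. Msln, mesothelin, was at 53.6 and 70.7 in WT and 19.8 and 27.6 in het (−1.36, adjusted p = 0.0695). Upk3b was not called without WT replicate 1 (adjusted p = 0.0672) and Slpi was called only without het replicate 2. Gpm6a was not called when any single library was left out. The markers summed to 6514 and 6566 in WT and 6289.5 and 6088 in het, a sum set by members that other cells express. In bulk tissue, fewer cells of a type and less RNA per cell cannot be told apart.

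Endothelial markers lay above WT in 25 of 29 cases (median 0.20) and 2 rose, Lyve1, a hyaluronan receptor of sinusoids (126 and 171 in WT, 280 and 276 in het; 0.92, SE 0.16, adjusted p = 0.0403), and Gpr182, a sinusoidal receptor (0.67, SE 0.13, adjusted p = 0.0442). Their sum was 9599.7 and 10179 in WT and 11128 and 11662 in het, with no overlap. The list had 0 calls without WT replicate 1, het replicate 1 or het replicate 2. S1pr1, a receptor of endothelium that is outside the list, fell (−0.48, SE 0.09, adjusted p = 0.0477). Whether a shift of endothelial RNA has a part in the rise of the basement membrane collagens was not tested.

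Kupffer cell and macrophage markers had 0 calls among 26, with 21 above WT and a median of 0.21 that ran from 0.01 without het replicate 2 to 0.41 without WT replicate 2. Their sum, 16031 and 20003 in WT and 18377 and 22886 in het, overlapped between the groups. Stellate and fibroblast markers had 1 rise, Nt5e, the ectonucleotidase CD73 (0.63), among 24 (median −0.08), and cholangiocyte markers 0 among 9 (median 0.05). Hepatocyte markers had 0 calls among 25 (median −0.10) and summed to 2340548 and 2055257 in WT and 1963371 and 2122819 in het.

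Adipocyte markers had 0 calls among 7 (median 0.35). Cfd, adipsin, was at 1.95 and 13.3 in WT and at 22.4 and 54.1 in het (adjusted p = 0.303), and Car3, which hepatocytes also make, at 33678 and 46944 in WT and 41661 and 38584 in het. Adipoq, Lep and Plin1 were not analysed here, so the part of adipose RNA in the droplet genes was not tested. Ly6d, a surface antigen of early B cells and of some epithelia, rose from 56.6 and 69.7 to 368 and 485 (2.73, SE 0.18, adjusted p = 0.00103). The other 10 measured lymphocyte markers lay below WT, with Cd79a at −0.21 (adjusted p = 0.829).

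**Figure D4:**
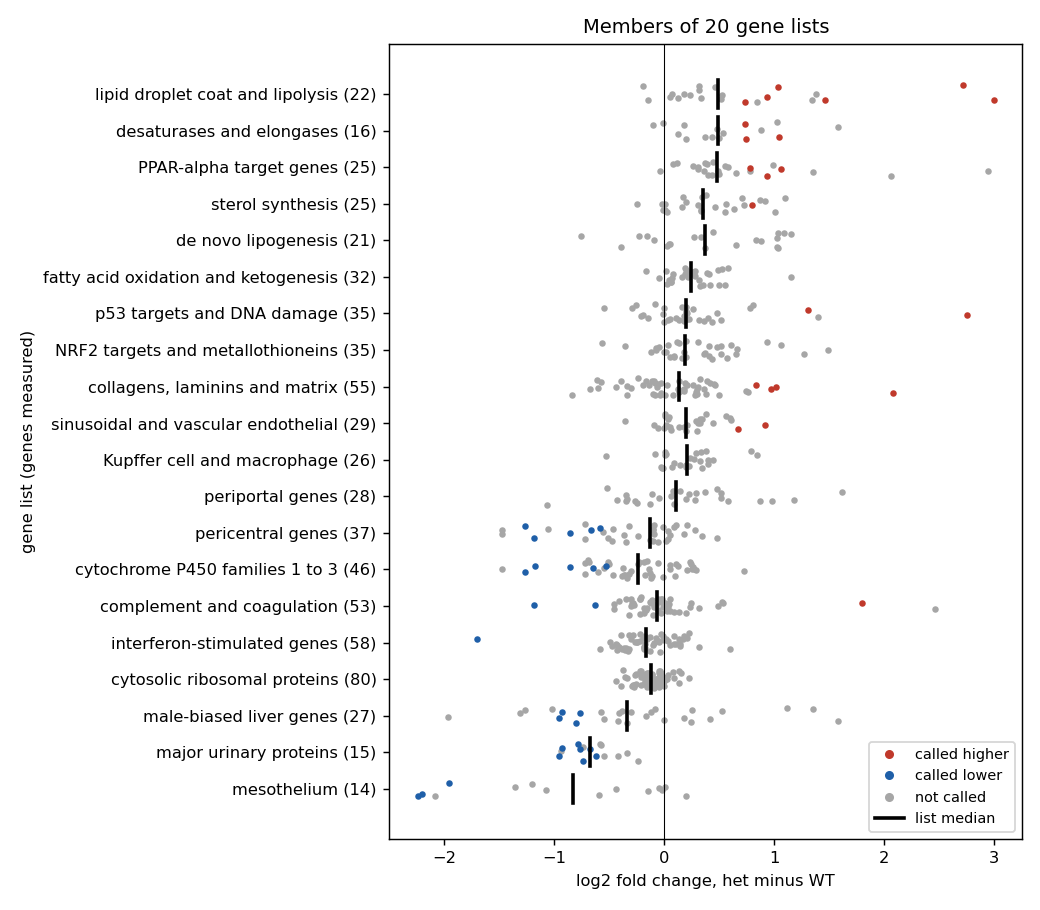
Log2 fold change of het over WT (horizontal axis) for each measured member of 20 gene lists, with called members in colour and a black bar at the list median; the vertical axis names each list with its number of measured genes. Medians run from 0.49 for lipid droplet genes to −0.68 for the major urinary proteins and −0.83 for mesothelium.

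Genes of protein synthesis, respiration and immunity gave few or no calls. Cytosolic ribosomal proteins had 0 calls among 80, with 70 below WT and a median of −0.12 that was −0.01 without WT replicate 1 and −0.19 without WT replicate 2. Respiratory chain and ATP synthase genes (77 genes, median 0.03) and the mitochondrial ribosome (77 genes, median −0.01) had 0 calls. Interferon-stimulated genes lay below WT in 42 of 58 cases with 1 fall, and their median of −0.17 was −0.34 without WT replicate 1 and 0.06 without WT replicate 2. Clock genes (24 genes, median −0.02), antigen presentation (18 genes, median 0.02) and chemokines (22 genes, median 0.04) had 0 calls.

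Transport and nucleotide genes stood among the remaining calls. Slc39a5, a zinc importer, went from 59.5 and 67.7 to 207 and 238 (1.79, SE 0.17, adjusted p = 0.0035), and Slc45a3, a sugar transporter, from 313 and 282 to 594 and 702 (1.12, SE 0.12, adjusted p = 0.00499). Falls came from Slc22a7, an organic anion transporter (−1.002), Slc16a10, which carries aromatic amino acids (−0.80), Slc29a1, a nucleoside transporter (−0.58), and Slco1a4, a bile acid and drug transporter (−0.56). Abca8a (−0.71) and Abcc6 (−0.60), ABC transporters, fell too. Mthfd1l, a mitochondrial enzyme of folate metabolism, rose from 14.6 and 25.6 to 75.0 and 57.5 (1.71, SE 0.33, adjusted p = 0.0477). Its WT values rest on 15 and 25 reads, and its log2 fold change ran from 1.32 to 2.09 when a library was left out. Mthfd1l was the single call among 62 genes of amino acid catabolism and the urea cycle (median −0.02). Uck1, a uridine kinase (0.58), Dntt, the terminal transferase (0.97), and Gal3st1, a sulfotransferase of glycolipids (1.78), rose.

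Regulators of transcription changed in both directions. Smarca4, the ATPase of the BAF remodelling complex, stood at 837 and 977 in WT and 1564 and 1347 in het (0.68, SE 0.12, adjusted p = 0.0372). The corepressor genes Tle3 (0.82) and Tbl1xr1 (0.48) rose, as did Gata6 (0.89), Zfp608 (1.19) and Zfp750 (0.98). Ctcfl, a paralog of CTCF (1.29), and Ctcflos (1.5), which lies beside it on chromosome 2 and may share its reads, rose together. Hhex, a homeobox gene of liver development, fell from 1077 and 1072 to 663 and 660.2 (−0.70, SE 0.09, adjusted p = 0.0122). Nfix (−0.66), Nab2, a corepressor of EGR factors (−0.77), and Aebp1 (−1.25) fell.

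Ubiquitin and signalling genes outside the lists also changed. Josd2, a deubiquitinase, fell from 694 and 685 to 333 and 351 (−1.01, SE 0.10, adjusted p = 0.00368), and was called whichever library was left out. The RING-type genes Rnf11 (0.49) and Lnx2 (0.69) rose. Lifr, the receptor of leukaemia inhibitory factor (−0.62), Map2k6, a kinase of the p38 pathway (−1.15), Plxnb1, a semaphorin receptor (−0.68), and the kinase genes Prkd3 (−0.62) and Mast3 (−0.71) fell. Adora1, an adenosine receptor (0.93), Sema4b (0.77), Dusp3, a phosphatase (0.57), Ppp2r1b, a subunit of phosphatase 2A (0.65), Hfe2, the iron regulator hemojuvelin (0.49), and Mrap, a partner of melanocortin receptors (0.70), rose.

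Further rises were those of St5 (1.52), Fbf1 (1.47), Lrfn3 (1.44), Enc1 (1.17), Lad1 (1.13), Unc119 (1.09), Rnd2 (1.04), Fam126a (0.99), Sdpr (0.97), Megf9 (0.92) and Ypel2 (0.92). St5 stood at 355 and 308 in WT and 986 and 911 in het and, like Fbf1, was called whichever library was left out. Smaller rises came from Cpeb2 (0.85), Plekha1 (0.79), Pgrmc2 (0.76), Tmem64 (0.75), Arl4a (0.73), Arsa (0.72), Dhrs7b (0.68), Grpel2 (0.66), Myo1d (0.63), Cmtm4 (0.62), Fndc3b (0.62), Tmem37 (0.61), Hip1r (0.59), Abhd17a (0.56), Tgoln1 (0.55), Atp9a (0.55), Zfyve26 (0.53) and Tmed5 (0.52). Further falls were those of Limd2 (−0.89), Clec2d (−0.85), Adam11 (−0.74), Cml1 (−0.72), Card10 (−0.62), Alcam (−0.57), Rgl3 (−0.54) and Dazap1 (−0.51). The less characterised genes BC089597 (−1.53), 2310001H17Rik (−1.01), 8430419L09Rik (−0.97) and BC024386 (−0.58) fell, and D130043K22Rik (1.00) and 1810055G02Rik (0.87) rose.

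Called genes were spread over the genome. The largest share was that of chromosome 19, with 6 rises and 5 falls among 453 genes tested (2.43%). Chromosome 1 held 13 rises and 3 falls among 668 (2.4%), and chromosome X 0 calls among 339. Chromosome 4 held 7 rises and 8 falls among 743 (2.02%), of which 7 falls were the major urinary protein genes. Chromosome 7, which carries Ube3a, had 6 rises and 4 falls among 882 genes (1.13%).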

How the data were processed

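Total liver RNA was sequenced, per the labels' protocols. Tools named by the submitters' processing notes, without their roles, are DESeq2, featureCounts and Subread 1.5.2, with GRCm38 (mm10) as the build. Neither the annotation nor any use of strand is given in the sources used here. Signal values as deposited are normalised read counts per gene, scaled by the authors with 1 factor per library, since 100% of entries were whole multiples of 1 read within 0.001. Recovered reads per library are given with the report; low genes rest on few of them. The lowest gene mean in the table is 17.8 normalised reads, and 18 names turned into dates (4 sharing a name) stayed in the test unnamed. Positions were taken from GENCODE M21 (11361 genes) and RefSeq (369), together 99.6%; promoters came from RefSeq on GRCm38.p6.

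Values were taken to log2(value + 1) and tested with limma 3.58.1 under R 4.3.3 (eBayes, trended and robust), het against the WT pair of the same table, n = 2 in each, with Benjamini-Hochberg adjusted p under 0.05 over 11773 genes; a fold change on this scale understates that of low genes. The test was tried on simulated data in which all genes shared the same setting of spread between libraries. The real genes differ in spread, so that trial does not show how many of the calls are false. Planned count tests (edgeR, DESeq2 and voom on recovered reads) were not run, because the recovery could not be checked independently. Alternatives were other scalings, pseudocounts of 0.5 and 5, a minimum of 5 CPM, no robust estimate, all 8 libraries, the replicate block and leaving out each library. Members and the 58 gene lists were chosen with earlier results of these data known, so that no list is independent support. Named genes were Ube3a and Kmt2d, the 15 called genes at each end of the fold change, called list members, members of smallest p in lists with few calls, and other called genes once; Pnpla2, Scd1, Pdk4, Fgf21, Apoa4, Slco1a1, Lcn2, Lgr5, Axin2, Glul, Znrf3 and a few more uncalled members were named after their values were seen. Some genes that the rule selects are not reported here.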

Additional observations from a re-analysis of the deposited data

How the results depend on the processing

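The number of called genes was 93 (58 higher and 35 lower) without the robust variance estimate and 0 (0 higher and 0 lower) with all 8 libraries in a single fit over 11754 genes. Leaving out a library gave 61 to 173 calls in all, 38 to 130 higher and 17 to 43 lower; the lone library of an arm is then taken to vary as other libraries do. Other settings stayed within 1.5 times of the 169 calls: 172 with trimmed-mean scaling (computed unweighted), 163 (93 higher and 70 lower) with library sizes without the 20 most abundant genes, 169 and 178 with pseudocounts of 0.5 and 5, and 128 with a minimum of 5 CPM. The replicate numbers of the labels are not stated to pair the libraries, and the differences between replicates 1 and 2 in the 2 groups correlated at −0.043 across genes; with the replicate block limma called 138 genes (87 higher and 51 lower), 101 of them among the 169. The Ube3a log2 fold change with the replicate block was −0.42 (adjusted p = 0.1645), and it ran from −0.50 to −0.35 when a library was left out, never past the threshold. None of the 169 called genes reversed its direction under the settings run; genes that were not called, such as Glul, Axin2 and Snhg14, changed sign when certain libraries were left out. The cause of these changes in the counts was not tested. The planned edgeR, DESeq2 and limma-voom tests on recovered reads were not run. With 2 libraries in each group the spread of each gene is estimated mostly from other genes. At 13171145 to 17748088 reads a library, genes with under 100 normalised reads rest on few reads. Wide errors also occurred at higher levels where the libraries of a group differed, as in Apoa4.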
